A study of Mus musculus with 8 samples.

Results

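The erythroid miRNAs miR-451a, miR-144 and miR-486 were followed across small RNA libraries of mouse spinal cord. They were taken by name from the deposited table: mmu-miR-451a, mmu-miR-144-5p and mmu-miR-144-3p, mmu-miR-486a-5p and mmu-miR-486b-5p, and mmu-miR-486a-3p (the species prefix is mostly left out in what follows). These are 6 names of the 1396 listed miRNAs. The values of miR-486a-5p and miR-486b-5p differed by at most 0.320% in any library, so they were counted as 1, which leaves 5 members, and miR-486a-5p stands for both. The study compared 2 groups of C57BL/6 mice, with 4 libraries of left spinal cord each. In the bone cancer pain group (BCP in the plots), LL/2 mouse lung cancer cells had been transplanted into the left femur, in its marrow space. In the sham group the marrow space of the same bone had received an equivalent of normal saline. The labels give no age, sex, time after surgery or perfusion. They also do not tie each library to an animal of its own, and the p-values therefore speak only of the spread among these 8 libraries, which may be technical.

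miR-144 and miR-451a are cut from neighbouring hairpins of 1 primary transcript, which the transcription factor GATA1 switches on as red cells mature. In mice miR-451a is among the most abundant miRNAs of red cells, and it is known for its unusual making: its hairpin is too short for Dicer and is cut by Argonaute 2. miR-486 lies within Ank1, the gene of a red cell membrane skeleton protein, and is known from erythroid cells and also from striated muscle. Neural tissue is not a known source of miR-451a, and its reads in brain or cord RNA are often taken as a measure of blood in the sample.

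The mature miR-451a and miR-144 arms are shown because they differ in seed and in their place in the hairpin. The sequences are from RefSeq (GRCm38.p6), written 5′ to 3′, with the seed (bases 2 to 8) in capitals.
miR-451a: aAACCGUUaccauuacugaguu
miR-144-5p: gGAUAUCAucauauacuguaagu
miR-144-3p: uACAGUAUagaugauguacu
No pair of the 3 shares a seed. No other mature miRNA of the same RefSeq table shared bases 2 to 8 with any of them. That table holds no entry for miR-486, so the search did not cover every listed miRNA. Bases 2 to 7 of miR-144-3p also occur in miR-101a-3p, an abundant miRNA of chromosome 4, which differs at the last base of the seed.
miR-101a-3p: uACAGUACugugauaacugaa
miR-101a-3p averaged 1810.1 CPM (reads scaled to the library's total) in bone cancer pain and 1755 CPM in sham, and no library was below 1505 CPM. miR-144-3p itself reached at most 12.4 CPM.

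In the hairpins below, the capitals mark the mature miRNAs.
Mir451a: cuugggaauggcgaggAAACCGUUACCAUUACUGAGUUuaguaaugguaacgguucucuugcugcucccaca
Mir144: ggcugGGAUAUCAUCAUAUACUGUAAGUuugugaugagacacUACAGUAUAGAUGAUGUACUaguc
Mir451a has 72 bases and its mature miRNA takes positions 17 to 38. The terminal loop that RNAfold predicted, positions 35 to 38, lies entirely inside the mature sequence. Mir144 has 66 bases, with miR-144-5p at positions 6 to 28 and miR-144-3p at positions 43 to 62, and its predicted loop at positions 31 to 36 lies between the arms. miR-144 thus has 2 arms to compare, while miR-451a has no opposite arm in this annotation.

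In GRCm38, the same assembly as the mm10 build of the submitters' processing notes, Mir144 lies on the plus strand of chromosome 11 at chr11:78073005-78073070. Mir451a follows it at chr11:78073170-78073241, 99 bases further on, and no protein-coding gene of GENCODE M21 overlaps either. Mir451b lies on the opposite strand of the Mir451a hairpin. Mir486 lies on chromosome 8 at chr8:23142555-23142682, on the same strand as Ank1, in an intron. Mir3107, the hairpin gene of miR-486b, overlaps Mir486 on the opposite strand, at chr8:23142573-23142662.

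The libraries held 5220739 to 9260169 reads of listed miRNAs, and a floor of 3 reads corresponded to 0.222 to 0.390 CPM. The 5 miRNAs of the Hox clusters, which mark the cord among neural tissues, summed to between 118705 and 155273 CPM in bone cancer pain and between 122960.5 and 152217 CPM in sham. The 7 neuron miRNAs summed to between 106302 and 132394 CPM in bone cancer pain and between 113676 and 127919.9 CPM in sham, so the markers of the labelled tissue were high in every library. Sham 3 and sham 4 stood at the 2 ends of the range for miR-451a, miR-144-5p and miR-486a-5p, and comparisons that rest on them are given with and without them. Sham 4 also had the fewest listed reads. Bone cancer pain 1, with the next fewest at 5672862, had the third highest miR-451a level of the 8. The members together made up 0.217% to 0.343% of the listed CPM in bone cancer pain and 0.0992% to 0.498% in sham.

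The level of the cluster miRNA miR-451a ranged less among bone cancer pain libraries than among sham libraries. mmu-miR-451a stood at 1104, 1162, 710.2 and 999 CPM in bone cancer pain libraries 1 to 4, against 441, 658, 2008 and 285 CPM in sham libraries 1 to 4. All 4 bone cancer pain libraries lay above sham 1, sham 2 and sham 4 and below sham 3, so the groups overlapped. A bulk sample cannot tell fewer cells of a type from less RNA per cell, for this and all other values here. The means were 994 ± 201 CPM in bone cancer pain and 848 ± 788 CPM in sham (SD, n = 4 each). The log2 fold change on log2(CPM + 1), bone cancer pain minus sham, was 0.61 (95% interval -0.45 to 1.67, limma adjusted p = 0.943). It was 1.16 without sham 3 and 0.23 without sham 4, and neither passed the adjusted threshold of 0.05.

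miR-144-5p, an arm of the neighbouring hairpin, followed nearly the same order at a much lower level. mmu-miR-144-5p stood at 23.8, 20.1, 14.6 and 15.2 CPM in bone cancer pain, against 5.41, 11.85, 29.2 and 3.38 CPM in sham. Sham 3 was again above, and the other 3 sham libraries below, every bone cancer pain library. Its log2 fold change was 0.90 (95% interval -0.19 to 1.99, limma adjusted p = 0.943), or 1.42 without sham 3 and 0.50 without sham 4.

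miR-144-3p, the other arm, rested on 59 to 109 reads per library in bone cancer pain and on 14 to 152 reads in sham. The levels of mmu-miR-144-3p were 12.4, 8.98, 5.92 and 6.02 CPM in bone cancer pain, against 3.85, 3.85, 12.05 and 1.82 CPM in sham. Here bone cancer pain 1 was above sham 3, and sham 1, sham 2 and sham 4 were again the lowest 3. The log2 fold change was 0.73 (95% interval -0.18 to 1.63, limma adjusted p = 0.943), or 1.15 without sham 3 and 0.41 without sham 4.

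miR-486a-5p, from the separate locus in Ank1, was about as abundant as miR-451a. mmu-miR-486a-5p stood at 1243, 923, 718 and 889 CPM in bone cancer pain, against 584, 885, 1366 and 380.1 CPM in sham. Sham 3 was the highest and sham 4 the lowest, while sham 2 lay within the bone cancer pain range. The log2 fold change was 0.36 (95% interval -0.38 to 1.10, limma adjusted p = 0.943). Leaving out sham 3 gave 0.67, sham 4 0.06 and bone cancer pain 1 0.22.

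The opposite arm, miR-486a-3p, did not share this order. mmu-miR-486a-3p stood at 3.19, 2.72, 2.91 and 4.25 CPM in bone cancer pain, against 3.85, 3.63, 4.28 and 3.9 CPM in sham, from 26 to 48 reads in bone cancer pain and from 30 to 54 reads in sham. Bone cancer pain 1, 2 and 3 were below every sham library, and bone cancer pain 4 was within the sham range. The log2 fold change was -0.22 (95% interval -0.56 to 0.13, limma adjusted p = 0.943). miR-486b-3p, a related row outside the members and below the filter, had 2 to 7 reads in bone cancer pain and 4 to 10 in sham, and was highest, at 1.3 CPM, in sham 4.

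**Figure D1:**
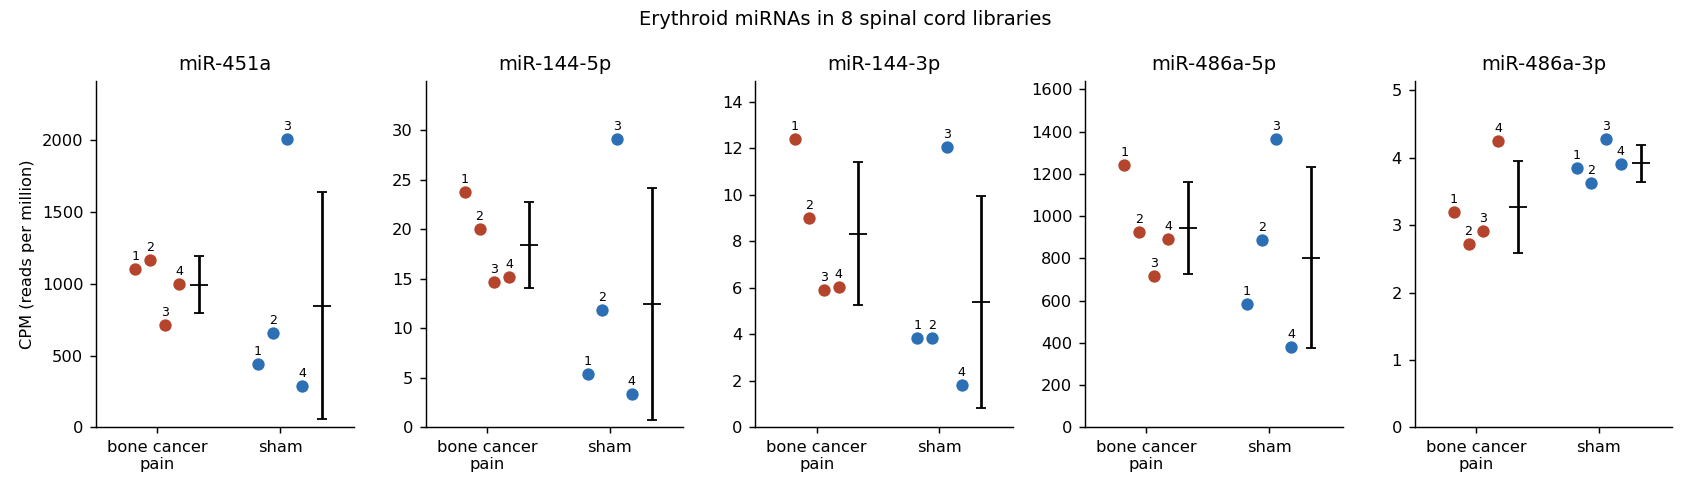
CPM of the 5 erythroid miRNAs (y axes, each from 0) in bone cancer pain (left, red) and sham (right, blue), with library numbers beside the points and the mean ± SD of 4 libraries in black. Sham 3 is the highest or near the highest for every miRNA. Sham 4 is the lowest for every miRNA but miR-486a-3p, whose 8 values lie between 2.72 and 4.28 CPM.

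Between the groups, 0 of the 5 members passed an adjusted p of 0.05 with limma, against a background of 0.0% of the 605 miRNAs tested. At an unadjusted p under 0.05 there were also 0 of the 5, against 4.63% of all tested. The groups overlapped for all 5 members, while 1.98% of all tested were higher and 1.65% lower in bone cancer pain without overlap. All 5 members passed the filter of a mean of at least 1 CPM. Of them, 4 had a positive and 1 a negative log2 fold change, with a median of 0.61, beside a median of -0.01 over all 605 and 48.3% of those above 0. edgeR and DESeq2 on the recovered reads called 0 members and 0 miRNAs after adjustment, with 7.11% of the 605 at an unadjusted p under 0.05 in edgeR and 5.12% in DESeq2. With them the log2 fold change of miR-451a was 0.21 in both, lower than the 0.61 of the log scale, that of miR-144-5p was 0.53 with edgeR and 0.54 with DESeq2, and that of miR-486a-5p was 0.22 in both. Without sham 3 and sham 4, an alternative chosen after seeing the data, the log2 fold changes were 0.86 for miR-451a, 1.07 for miR-144-5p, 0.89 for miR-144-3p, 0.36 for miR-486a-5p and -0.16 for miR-486a-3p. These too stayed short of the threshold, with limma adjusted p-values of 0.527 to 0.944. Counts at an unadjusted p under 0.05 turned on the same libraries. Without sham 3 they took in 4 of the 5 members, all but miR-486a-3p, against 6.99% of the miRNAs then tested, with limma adjusted p-values of 0.293 for miR-451a and both miR-144 arms and 0.629 for miR-486a-5p. Without sham 3 and sham 4 they took in 3 of the 5, miR-451a and both miR-144 arms, against 7.6% of those then tested. Sham 3 was the highest sham library for these same members, so leaving it out favours such counts, and they are no test. With any other single library left out, the lowest unadjusted limma p of any member was 0.066. The members that passed also moved together across the libraries, so they are not separate results.

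The differences among sham libraries were large for the members beside those of other miRNAs. Sham 3 exceeded sham 4 by 7.05-fold for miR-451a, 8.63-fold for miR-144-5p, 6.62-fold for miR-144-3p and 3.59-fold for miR-486a-5p, but 1.10-fold for miR-486a-3p. In bone cancer pain the highest library exceeded the lowest by 1.64-fold for miR-451a and by at most 2.09-fold for any member, that of miR-144-3p. The SD of log2(CPM + 1) of miR-451a was 0.32 in bone cancer pain and 1.21 in sham, while the median over the 605 miRNAs was 0.22 in bone cancer pain and 0.25 in sham. In sham, 99.0% of the tested miRNAs had a smaller SD than miR-451a and 95.7% a smaller one than miR-486a-5p, while 3.97% had a smaller one than miR-486a-3p. The SD of miR-486a-3p rests on 30 to 54 reads per sham library at a mean of 3.92 CPM, where the added 1 CPM shrinks differences. A highest library at least 4 times the lowest (CPM + 1, all 8 libraries) was found for 3 of the 5 members and for 4.96% of all tested. The difference in spread between the groups was not tested.

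**Figure D2:**
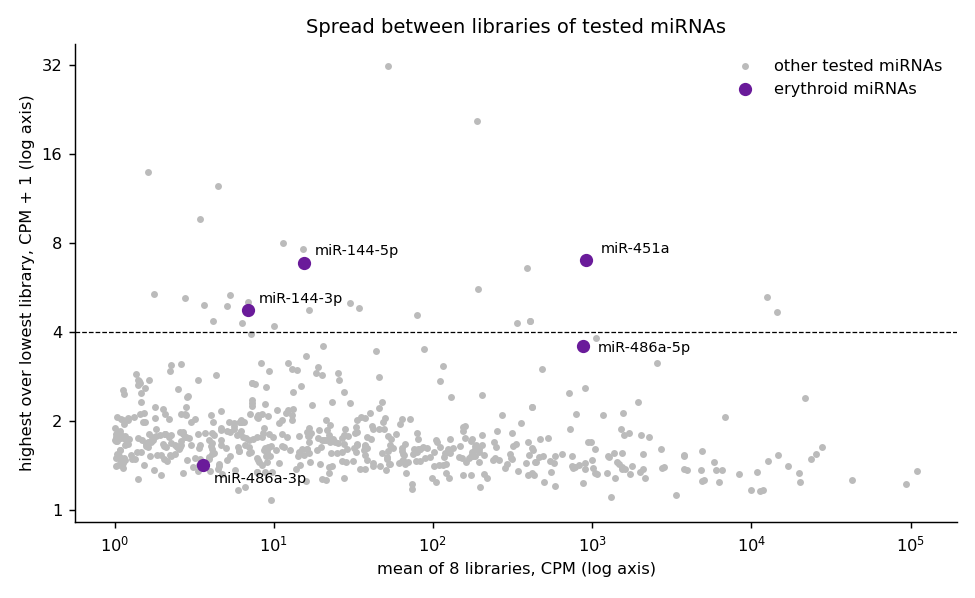
Highest over lowest library (CPM + 1, log axis) against the mean of the 8 libraries (CPM, log axis) for the 605 tested miRNAs, with the 5 erythroid miRNAs in purple and a dashed line at 4. miR-451a (7.03), miR-144-5p (6.89) and miR-144-3p (4.75) lie above the line, miR-486a-5p (3.59) just under it and miR-486a-3p (1.42) among the bulk of the miRNAs.

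The 4 members other than miR-486a-3p moved together across the libraries. miR-451a and miR-144-5p had a Pearson r of 0.97 on log2(CPM + 1) over the 8 libraries (Spearman rho 0.98), with a two-sided exact permutation p of 4.96e-05 and 0.000496 after Benjamini-Hochberg adjustment over the 10 pairs. miR-451a and miR-486a-5p, from different chromosomes, had an r of 0.95 (rho 0.95, exact permutation p = 0.000471, adjusted 0.00118). All 6 pairs among these 4 had an r between 0.92 and 0.97, a rho of at least 0.92 and an adjusted exact permutation p of at most 0.00174. With the group means removed the 6 values were 0.93 to 0.97. Without the 2 libraries farthest from the median of the first miRNA of each pair, which always included sham 4, r was 0.80 to 0.97. Over the 6 libraries without sham 3 and sham 4, 1 of the 6 pairs, miR-451a with miR-144-5p, passed (r = 0.95, adjusted exact permutation p = 0.0278). The other 5 had an r between 0.78 and 0.88 and an adjusted exact permutation p of 0.0718. The pairs are not independent, because all members are read from the same 8 libraries and scaled to the same totals.

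miR-486a-3p was not correlated with any other member in a way that passed the test. Its r was -0.06 with miR-451a, -0.24 with miR-144-5p, -0.25 with miR-144-3p and -0.07 with miR-486a-5p, its own opposite arm, with rho from -0.11 to 0.05 and exact permutation p-values from 0.535 to 0.889 (0.704 to 0.889 adjusted over the 10 pairs). Without the 2 farthest libraries its r ran from -0.38 to 0.12, and with the group means removed from 0.07 to 0.22. Without sham 3 its r was -0.57 with miR-144-5p and -0.59 with miR-144-3p (adjusted exact permutation p = 0.235 for both). It rested on 26 to 54 reads per library, against 2922 to 17236 for miR-486a-5p, and the part of counting error in this was not tested.

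**Figure D3:**
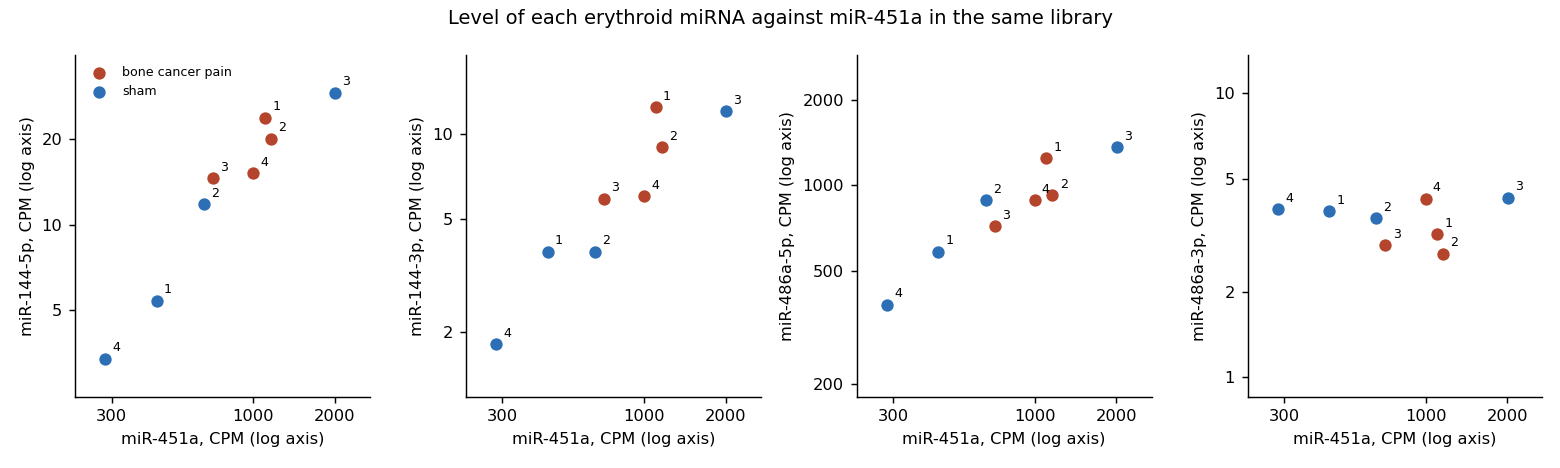
CPM of miR-144-5p, miR-144-3p, miR-486a-5p and miR-486a-3p (y axes, log scale, each spanning the same fold range) against miR-451a in the same library (x axis, CPM, log scale), with library numbers beside the points. The first 3 rise with miR-451a in bone cancer pain (red) and sham (blue) libraries alike, with r of 0.97, 0.93 and 0.95 over the 8 libraries, and miR-486a-3p stays flat (r = -0.06).

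The 5p arm of miR-144 was the more frequent one in all 8 libraries. miR-144-5p took 65.8%, 69.1%, 71.2% and 71.7% of the reads of both arms in bone cancer pain libraries 1 to 4, against 58.4%, 75.5%, 70.8% and 65.0% in sham libraries 1 to 4. The sham libraries held both the lowest and the highest share, and the groups overlapped. The exact Clopper-Pearson 95% interval, which covers counting error only, was 47.5% to 68.8% in sham 1 and 69.1% to 81.1% in sham 2, the only libraries whose intervals did not overlap. In sham 4, with 40 reads of both arms, it was 48.3% to 79.4%. The mean log2 ratio of 5p to 3p was 1.19 ± 0.18 in bone cancer pain and 1.07 ± 0.49 in sham (SD, n = 4 each), which is a difference of 0.12 (bone cancer pain minus sham, two-sided exact permutation p = 0.657, also after adjustment over the 4 ratios compared). Without sham 1 the difference was -0.08. The smallest p that the 70 arrangements allow is 0.0286.

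For miR-486a the arms were far from equal, and the ratio differed more between libraries. miR-486a-5p exceeded miR-486a-3p by 389.8-fold, 339-fold, 247-fold and 209-fold in bone cancer pain libraries 1 to 4, against 152-fold, 244-fold, 319-fold and 97.5-fold in sham libraries 1 to 4. The lowest ratios were in sham 4 and sham 1, the libraries with the least miR-486a-5p. The mean log2 ratio was 8.17 ± 0.41 in bone cancer pain and 7.53 ± 0.76 in sham, which is a difference of 0.64 (two-sided exact permutation p = 0.171, adjusted 0.419), or 0.34 without sham 4. The values of miR-486a-5p and miR-486b-5p were nearly the same, so the 5p value may hold reads of both hairpins. The 3p value is that of the row named miR-486a-3p, and miR-486b-3p has a row of its own. No miR-486 sequence was compared, so whether the 3p row also holds reads of both hairpins was not tested.

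Within the chromosome 11 cluster, miR-451a exceeded miR-144-3p by 89.1-fold, 129-fold, 120.0-fold and 166-fold in bone cancer pain libraries 1 to 4, against 114-fold, 171-fold, 167-fold and 156-fold in sham libraries 1 to 4. Bone cancer pain 1 was the lowest and sham 2 the highest, and the groups overlapped. The mean log2 ratio was 6.94 ± 0.37 in bone cancer pain and 7.23 ± 0.27 in sham, which is a difference of -0.29 (two-sided exact permutation p = 0.314, adjusted 0.419), or -0.13 without bone cancer pain 1. Read numbers of different miRNAs in 1 library also depend on how well each sequence is captured in library preparation, so these ratios compare libraries, not molecules.

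Between the 2 loci, miR-451a stood at 0.888, 1.26, 0.989 and 1.12 times miR-486a-5p in bone cancer pain libraries 1 to 4, against 0.754, 0.743, 1.47 and 0.749 times in sham libraries 1 to 4. Sham 1, sham 2 and sham 4 lay within 0.743 to 0.754 and below all 4 bone cancer pain libraries, and sham 3 lay above them. The log2 ratio averaged 0.08 ± 0.22 in bone cancer pain and -0.17 ± 0.49 in sham, which is a difference of 0.25 (two-sided exact permutation p = 0.314, adjusted 0.419), or 0.50 without sham 3. It was 0.17 without bone cancer pain 2, sham 1, sham 2 or sham 4, each left out alone. miR-486 is also a miRNA of striated muscle, and the summed CPM of the muscle list, miR-1a-3p foremost, was 6068, 6100.4, 7184 and 16949.7 in bone cancer pain libraries 1 to 4, against 29311, 24018, 5379 and 10001 in sham libraries 1 to 4. Muscle miRNAs were highest in sham 1 and sham 2, where the ratio was low, and lowest in sham 3, where it was high, but bone cancer pain 4 combined the third highest muscle sum with a ratio of 1.12. Sham 4, with a muscle sum of 10001 CPM, had a ratio as low as sham 1 and sham 2, at 0.749. Bone cancer pain 1, with 6068 CPM, had the lowest ratio of its group, 0.888. All 7 tested muscle miRNAs had a negative log2 fold change, with a median of -0.94, and 0 of them passed limma after adjustment. Sham 1 also held the highest values of the heart and slow muscle miRNAs, with 12.9 CPM of miR-208a-3p, 4.68 CPM of miR-208b-3p and 326 CPM of miR-499-5p. The bone cancer pain libraries had at most 0.09 CPM of miR-208a-3p and of miR-208b-3p and 16.3 CPM of miR-499-5p, and the other 3 sham libraries at most 0.0, 0.59 and 19.0 CPM of the same 3. The part of muscle RNA in the ratio was not tested.

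**Figure D4:**
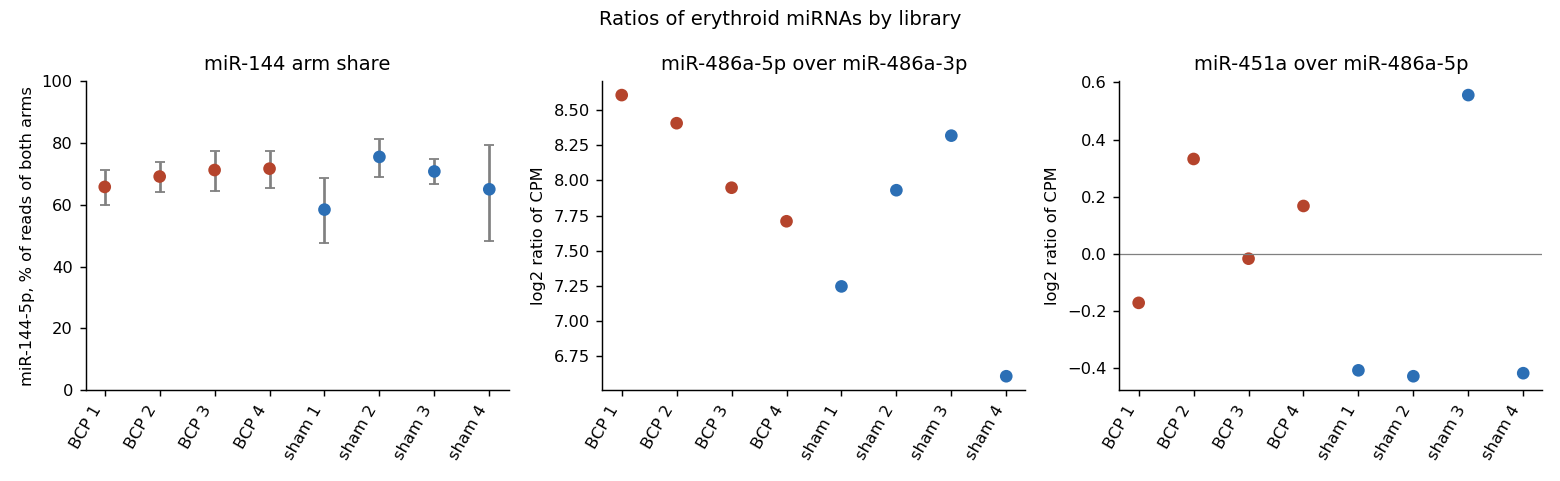
Left, share of miR-144-5p in the reads of both miR-144 arms (%, with exact 95% binomial intervals), and centre and right, log2 ratios of CPM for miR-486a-5p over miR-486a-3p and for miR-451a over miR-486a-5p, by library (bone cancer pain red, sham blue). The miR-144 share stays between 58.4% and 75.5%, the miR-486a arm ratio is lowest in sham 4 (6.61), and miR-451a over miR-486a-5p is near -0.4 in 3 sham libraries and 0.56 in sham 3.

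Other miRNAs that red cells, other blood cells, vessels or neighbouring tissue could bring were set beside miR-451a as summed lists, with 8 lists tested in the same family. The red-cell-associated list holds 16 miRNAs abundant in red cells or their precursors, led by miR-182-5p, miR-191-5p and miR-25-3p, and all 16 were above 0 in every library here. miR-182-5p and its cluster partners miR-96-5p and miR-183-5p are known from sensory neurons as well. Its sum was 6930, 7019, 6677 and 8106 CPM in bone cancer pain, against 6271, 6386, 7248 and 6071 CPM in sham. These libraries differed by up to 1.34-fold, and sham 4 was the lowest, as it was for miR-451a. The r with miR-451a was 0.75 (rho 0.86, two-sided exact permutation p = 0.0331, adjusted over the 8 lists 0.265), and without bone cancer pain 4 it was 0.98 (adjusted exact permutation p = 0.00159). All other alternatives but 1 stayed short of the adjusted threshold, with r down to 0.64 without sham 4 and 0.69 without sham 3 and sham 4. The exception, median-of-ratios scaling, gave 0.88 (adjusted exact permutation p = 0.0355). That scaling also gave a higher r for other lists, with 0.59 for the neuron list, 0.62 for the liver list and 0.68 for the Hox list, against 0.03, 0.31 and 0.55 without it, none of which passed. The list had 15 members with a positive and 1 with a negative log2 fold change, with a median of 0.20, and 0 of 16 passed limma over all tested. Its members did not all follow miR-451a. Taken singly, miR-182-5p had an r of 0.73 with it, miR-191-5p -0.26 and miR-25-3p 0.85. Over the 16 the r ran from -0.93 for miR-22-3p to 0.88 for miR-363-3p.

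The sum of leukocyte and platelet miRNAs had no correlation with miR-451a that passed the test. The list of 7 summed to 562 to 652 CPM in bone cancer pain and 498 to 693 CPM in sham, with its lowest value in sham 3 and its highest in sham 4, the reverse of miR-451a (r = -0.62, rho = -0.50, two-sided exact permutation p = 0.102, adjusted 0.333). Without sham 3 and sham 4 the r was 0.33. In the other alternatives it stayed negative. It was -0.85 with group means removed (adjusted exact permutation p = 0.123) and -0.23 with median-of-ratios scaling. With 1 library left out it ran from -0.81 to -0.34. miR-342-3p and miR-150-5p, of lymphocytes, made up most of the sum and had an r with miR-451a of -0.79 and -0.72, whereas miR-142a-5p, made by blood-forming cells in general, had an r of 0.80. miR-223-3p, of neutrophils and platelets, had an r of 0.12. None of the 7 passed limma.

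The vascular list of 6 endothelial and smooth muscle miRNAs, led by miR-143-3p, miR-126a-3p and miR-126a-5p, summed to 23461 to 35667 CPM in bone cancer pain and 16951 to 29488 CPM in sham. Its r with miR-451a was 0.28 (two-sided exact permutation p = 0.499, adjusted 0.570), and sham 3, the highest for miR-451a, had the third lowest vascular sum, 18309.8 CPM. All 6 had a positive log2 fold change, and 0 passed limma after adjustment. The liver list, chosen for miRNAs that plasma can carry and led by miR-192-5p, miR-194-5p and miR-122-5p, had 3 of its 4 names listed and an r of 0.31 (exact permutation p = 0.458, adjusted 0.570). miR-122-5p, the defining miRNA of liver, ran from 0.53 to 18.05 CPM. The r of the muscle list was -0.55 (rho -0.79, exact permutation p = 0.166, adjusted 0.333), that of the Hox list 0.55 (exact permutation p = 0.158, adjusted 0.333), of the oligodendrocyte list -0.49 (exact permutation p = 0.217, adjusted 0.348) and of the neuron list 0.03 (exact permutation p = 0.946, adjusted 0.946). None of the 8 lists passed the adjusted threshold.

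**Figure D5:**
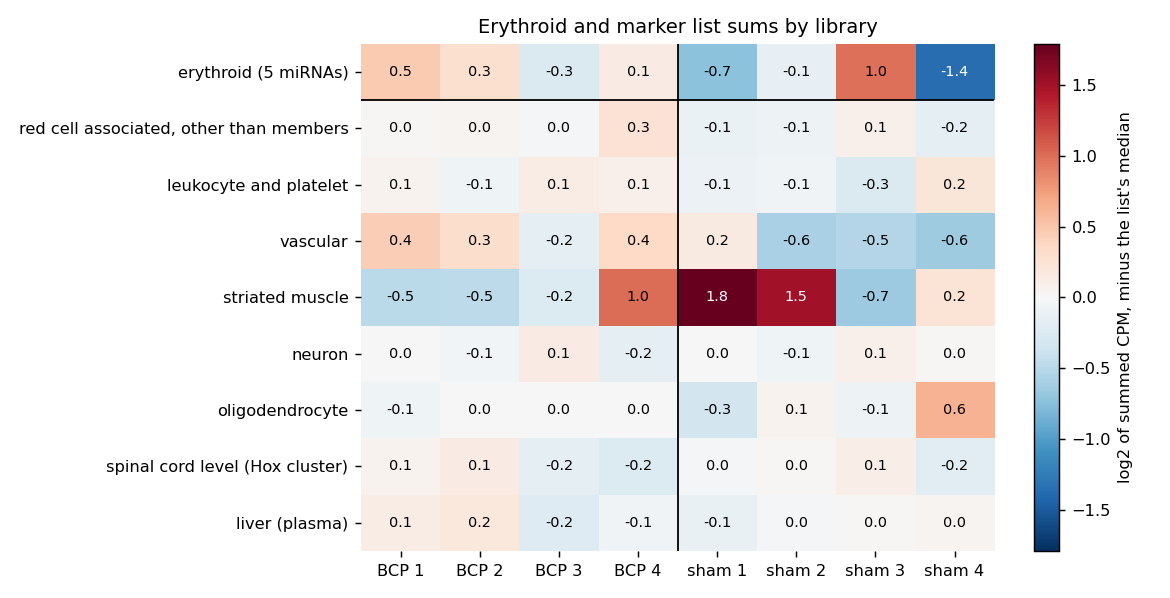
Log2 of the summed CPM of the 5 erythroid miRNAs (top row) and of 8 marker lists, minus each row's median over the libraries, in bone cancer pain (left) and sham (right). The erythroid row runs from -1.36 in sham 4 to 0.98 in sham 3, the muscle row peaks in sham 1 (1.79), and the neuron and Hox rows stay between -0.24 and 0.15.

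Ranked by r with miR-451a among the other 604 tested miRNAs, miR-144-5p came 1st, miR-486a-5p 2nd, miR-486b-5p (counted with it) 3rd and miR-144-3p 4th, while miR-486a-3p came 187th. An r of at least 0.7 was found for 3 of the 4 members set against miR-451a and for 3.31% of the 604. That share includes these 3 members and miR-486b-5p. The 8 nearest miRNAs outside the members came from several loci. miR-363-3p (r = 0.88) and miR-20b-5p (0.86) belong to the miR-106a cluster, miR-20a-5p (0.86) to the miR-17 cluster, miR-25-3p (0.85) and miR-106b-5p (0.81) to the miR-106b cluster, and the rest were miR-10a-5p (0.86), of the Hoxb cluster, miR-142a-5p (0.80) and miR-881-3p (0.79), the last at a mean of 2.25 CPM.

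miR-363-3p, of the red-cell-associated list, stood at 8.72, 8.89, 5.72 and 6.38 CPM in bone cancer pain, against 4.79, 6.07, 8.48 and 1.3 CPM in sham. It was lowest in sham 4, as 4 of the 5 members were, and its log2 fold change was 0.60 (95% interval -0.22 to 1.43). Over the 6 libraries without sham 3 and sham 4 its r with miR-451a was 0.91, that of miR-25-3p 0.86 and that of miR-881-3p 0.48. At the other end, miR-22-3p (r = -0.93), miR-501-3p (-0.91) and miR-5099 (-0.91) were the 3 lowest. miR-22-3p is itself in the red-cell-associated list and stood at 505, 488, 537 and 553 CPM in bone cancer pain, against 593, 573, 492 and 661 CPM in sham. It was highest in sham 4 and low in sham 3, and its r was -0.87 without both. These 11 miRNAs were picked from 604 by this measure, so their r values are a description with no test.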

How the data were processed

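The deposited values are CPM of mature miRNAs in 8 mouse libraries, scaled by the authors to a library total and rounded to 2 decimals. fastp, STAR, Bowtie, Salmon and mm10 are named without role or version, per the submitters' processing notes. Per the labels' protocols, TRIzol RNA was depleted of rRNA and fragmented, while the sample descriptions read small RNA.

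The value of 1 read was recovered from the steps between CPM values. Between 99.8% and 100% of non-zero values came out whole (tolerance 0.0051 CPM). The step of bone cancer pain 3 is close to 0.1 CPM, yet only 16.6% of its values from 1 CPM upward are multiples of 0.1. No library was a copy of another in its group (chi-square over degrees of freedom 31.8 to 503, miRNAs with 10 reads or more). Intervals and floors cover counting error only, since reads are not independent molecules.

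The 605 miRNAs averaging 1 CPM or more (791 left out) were fitted as log2(CPM + 1) with limma 3.58.1 in R 4.3.3 (mean-variance trend, two-sided, Benjamini-Hochberg over all 605). Such fold changes understate those of miRNAs near 1 CPM. edgeR 4.0.16 and DESeq2 1.42.0 were alternatives on the recovered reads. Ratios were compared by exact permutation of 70 group arrangements and correlations by all 40320 pairings. Loops were predicted with RNAfold 2.7.2. Of these steps, only the limma fit was tested on simulated data, drawn with the spread of these libraries.

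The members and lists were chosen with earlier results of these data known. The text names the members, miR-486b-3p as a related row, the 8 highest and 3 lowest miRNAs by r with miR-451a, and up to 3 of each list by mean CPM. Any other miRNA was named after its values were seen. Of the members' hairpins, Mir451a and Mir144 were matched by symbol to the RefSeq sequence table. Same-numbered libraries were checked for pairing by correlating their deviations from the group means.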

Additional observations from a re-analysis of the deposited data

Results flagged for a closer look

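The log2 ratio of miR-451a over miR-486a-5p was 0.56 in sham 3, far from the other 3 sham libraries, which lay between -0.43 and -0.41. The gap to the nearest of them was 0.979 of the group's range. Of 18 sets of 4 libraries examined this way it was the only one so marked, and chance marks about 1 in 20 such sets.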

How the results depend on the processing

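The 88 alternative log2 fold changes of the members and 43 of 44 alternative ratio differences kept their direction and side of the threshold, the exception being the miR-144 arm ratio, which ran from -0.076 (without sham 1) to 0.30 with 1 library left out. Calls at an adjusted p under 0.05 stayed at 0 under every setting tried, and no scaling moved the median of all miRNAs by over 0.1. The miRNAs at an unadjusted p under 0.05 numbered from 17, with limma and a filter of 10 CPM, to 66, with limma and no filter. These 2 settings tested different numbers of miRNAs. Pairs of members past the threshold numbered 6, or 1 without sham 3 and sham 4, where 6 libraries are left. Lists past it numbered 0, or 1 with median-of-ratios scaling and 0 to 1 with 1 library left out. The r of miR-486a-3p with miR-451a, miR-144-5p, miR-144-3p and miR-486a-5p turned to 0.24, 0.073, 0.079 and 0.29 with median-of-ratios scaling and to 0.22, 0.089, 0.067 and 0.16 with group means removed. With 1 library left out it ran from -0.48 to 0.13 for miR-451a, from -0.57 to -0.11 for miR-144-5p, from -0.59 to -0.12 for miR-144-3p and from -0.39 to 0.15 for miR-486a-5p. The r of miR-451a with the red-cell-associated list ran from 0.64 to 0.98 over all alternatives. That with the neuron list was 0.59 with median-of-ratios scaling, -0.050 with CPM rescaled to the listed miRNAs, -0.30 without sham 3 and sham 4 and -0.31 to 0.19 with 1 library left out. Without sham 3 and sham 4 it was 0.33 for the leukocyte and platelet list and 0.63 for the oligodendrocyte list. With 1 library left out it ran from -0.88 to 0.37 for the oligodendrocyte list and from -0.088 to 0.72 for the vascular list. The causes were not tested. Deviations of same-numbered libraries correlated at -0.06, -0.06, -0.01 and -0.31, and those of libraries with different numbers at -0.35 to 0.49. No positive correlation followed the numbers, but such values cannot settle whether same-numbered libraries were paired. With the replicate number as a block, limma called 0 (21 at an unadjusted p under 0.05, against 28 without the block), and the 4 ratio differences had adjusted exact p-values of 0.5 to 0.625, where 4 pairs allow no p below 0.125. miR-144-3p and miR-486a-3p fell below a filter of 10 CPM. The 14 to 152 reads of miR-144-3p and 26 to 54 of miR-486a-3p limit their ratios.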
